A study of Mus musculus with 5 samples.

Results

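The region described here is a stretch of 1400 kb on mouse chromosome 16, from 46500001 to 47900000 (build mm9), which ends where a 350 kb deletion begins. It holds 280 windows of 5 kb, out of 19951 windows in the table of contacts of that chromosome. The windows were chosen from measured values, namely the higher contact of the 350 kb deletion library just upstream of the deleted windows, so the ratios to wild type given below are a description and carry no test. Genes of the stretch were not analysed here, because the annotation used here is on another build.

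Contacts were measured by 4C-seq, which counts the DNA fragments ligated to 1 chosen bait, in mouse embryonic stem cells. The bait lies in the Dppa2/4 domain, named after a pair of genes for chromatin proteins of pluripotent cells, and the series asks which elements in cis control DNA replication. Of the series, 3 libraries are used here: 1 of the wild-type line 46C, 1 labelled as a boundary deletion of 45 kb and 1 as a boundary deletion of 350 kb. 46C is a mouse embryonic stem cell line, and per the labels' protocols it was grown on gelatin in GMEM with serum and LIF and deletions were made with CRISPR. The labels do not say whether a deletion line is 1 clone, whether both chromosomes carry the deletion, or whether the deletion lines derive from 46C. Since no group has a replicate, no difference given here could be set against the spread between samples. DNA contacts hold no cell type markers, so the labelled cell type was not checked.

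As background, a chromosome folds as a flexible fibre, so contact with a bait falls as the distance along the DNA grows. Topological domains are stretches within which contacts are more frequent than across their borders, and a boundary is the element between a pair of them. Removing a boundary also removes its DNA, which brings everything beyond it closer to the bait along the fibre.

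The bait of these 3 libraries is given by its primer pair, shown because every value below is read as a contact with that bait:
forward: agcgtgaggtacatgaAAGC
reverse: cctgaagagctggtaccaaa
The capitals mark the 4 bases at the 3′ end of the forward primer that equal the start of the HindIII site AAGCTT, the enzyme of the first digestion per the labels' protocols. The protocol in the labels names other primers, for a bacterial vector. The position of the bait was taken as 48605000, the middle of a gap without windows from 48555001 to 48655000, so the stretch lies 0.705 to 2.105 Mb upstream of it, upstream meaning lower coordinates.

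The deposited windows at 0 ran from 48185001 to 48230000 in the 45 kb library and from 47900001 to 48230000 in the 350 kb library, a length of 330 kb in place of the labelled 350. These windows had been left out by the authors' processing, so reads in them cannot check the labels. The deposited values are running means over 30 windows, or 150 kb. Undoing the mean gave whole reads, called own reads here: 1714005 for wild type, 1772088 for the 45 kb library and 1465714 for the 350 kb library. Of these, 127093, 113677 and 137414 fell in the stretch. To keep the loss of deleted windows from raising the rest, each library was scaled to the wild-type total over all windows outside both deletions.

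The stretch took more of the bait's contacts in the 350 kb library and fewer in the 45 kb library than in wild type. It held 7.75% of the own reads outside the deletions in wild type (95% Wilson interval 7.71 to 7.79%), 6.67% in the 45 kb library (6.64 to 6.71%) and 9.38% in the 350 kb library (9.33 to 9.42%). The intervals do not overlap, but they hold only the error of counting, and 4C reads carry no molecular identifiers here, so 1 ligated molecule can give many reads. The mean scaled signal was 522 in wild type, 447 in the 45 kb library and 642 in the 350 kb library. The log2 ratio to wild type was thus 0.30 for the 350 kb library and -0.22 for the 45 kb library. Scaled to windows over 5 Mb from the gap centre, the latter was -0.34. The deletion libraries, which share the wild-type library as control, differed from each other by a log2 of 0.52.

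**Figure D1:**
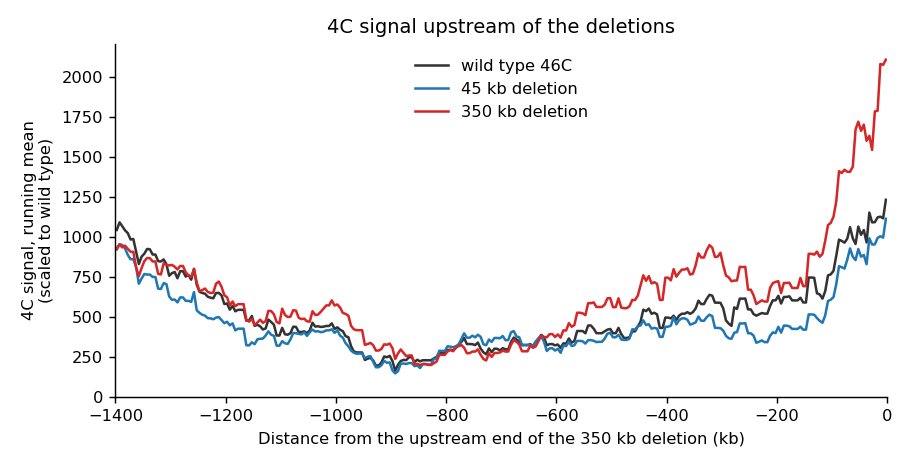
The horizontal axis is the distance in kb from the upstream end of the 350 kb deletion, and the vertical axis is the running mean of the 4C signal, scaled to the wild-type total outside both deletions, with 1 line per library. The 350 kb library runs above wild type over the last 625 kb before the deletion, and all 3 lines fall to a trough and rise again toward the far end.

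The wild-type profile was no plain decay. The signal fell from 1096 in the bin at 47.85 to 47.90 Mb, next to the deletion, and 965 at 47.80 to 47.85 Mb, to a trough of 221 at 47.00 to 47.05 Mb, a fold of 4.95. The neighbouring bins of the trough were at 230 (46.95 to 47.00 Mb) and 244 (47.05 to 47.10 Mb). From there it rose with growing distance to 985 at 46.50 to 46.55 Mb, 4.45 times the trough. The near end stood only 1.11 times above the far end, although the ends lie 1.4 Mb apart.

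The other libraries had the same outline. In the 45 kb library the bins were at 960 at the near end, 190 in the trough and 863 at the far end, and the trough was again at 47.00 to 47.05 Mb. In the 350 kb library they were at 1799, 222 and 886, with the trough at 47.05 to 47.10 Mb. The near end stood 8.09 times above the trough there, against 5.05 in the 45 kb library, while the far end stood 3.99 and 4.54 times above it. In own reads the lowest bin was 47.00 to 47.05 Mb in all 3 libraries. It held 672 reads in wild type, 521 in the 45 kb library and 578 in the 350 kb library. The other place of the trough in the 350 kb library was thus seen only in the running mean.

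Searched from 45.8 to 47.2 Mb, the highest running mean lay in the same window, 46505001 to 46510000, in all 3 libraries. Its deposited signal was 1091 in wild type, 963 in the 45 kb library and 1002 in the 350 kb library. Its own reads were less alike, with 1439, 1823 and 662. Over the 28 bins of 50 kb, the Pearson correlation of log2 signal was 0.96 between wild type and the 45 kb library, 0.93 between wild type and the 350 kb library and 0.87 between the deletions. These are descriptions across bins that share reads through the running mean and share the trend with distance. For own reads they were 0.93, 0.90 and 0.88.

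The ends of the stretch are limits of position. Just inside the far end, the window at 46500001 had a deposited signal of 1044 in wild type, 938 with the 45 kb deletion and 969 with the 350 kb deletion. Just outside, at 46495001, these were 1000, 922 and 912. At the near end the window at 47895001 was at 1233, 1123 and 2217, and the next one at 1233, 1123 and 0, the first deleted window of the 350 kb library. Neighbouring running means share nearly all their windows, so they could not show a step at the far end. In own reads, the window at 46495001 held 1072 in wild type, 1974 in the 45 kb library and 1801 in the 350 kb library. The window at 46500001 held 61, 59 and 107. Single windows scatter widely, so no step is read from these either. The near end is the deletion itself.

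Bin by bin, the higher signal of the 350 kb library came in 2 blocks of the running mean, with a block of no gain between them. Of the 28 bins, 22 were above wild type, with a median log2 of 0.27 and a range from -0.17 to 0.72. In the first block, from 47.25 Mb to the deletion, all 13 bins were above it. The highest were 0.72 at 47.85 to 47.90 Mb (signal 1799 against 1096), 0.60 at 47.50 to 47.55 Mb (773 against 510) and 0.58 at 47.55 to 47.60 Mb (891 against 596). The second block ran from 46.60 to 47.05 Mb and was highest at 46.90 to 47.00 Mb, with 0.48 and 0.47. Between them, the 4 bins from 47.05 to 47.25 Mb were below wild type, by log2 ratios of -0.14, -0.12, -0.17 and -0.10. The far end was below as well, with -0.15 at 46.50 to 46.55 Mb (886 against 985). In own reads each block was broken, as 4 bins within them turned sign. The bin starting at 47.15 Mb was at 0.12, and those starting at 47.65, 47.00 and 46.70 Mb were at -0.68, -0.056 and -0.11.

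Past a log2 of 0.5 there were 5 of the 28 bins, and none below -0.5, and scaling moved the count from 2 to 11. The background, all 190 bins within 5 Mb of the gap centre that are outside both deletions, held 12.1% above 0.5 and 10.0% below -0.5, with a median of -0.059. Since the stretch was chosen for this contrast, nothing is read from that difference. Among the 97 background bins whose wild-type signal reached at least the lowest of the stretch, 5.15% were above 0.5, and these were the 5 bins of the stretch. Below -0.5 there were 10.3%. The limit on wild-type signal was taken from the stretch, so all its 28 bins pass it, while the 18 other bins above 0.5 do not.

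In the 45 kb library 25 of the 28 bins were below wild type, with a median log2 of -0.20 and a range from -0.56 to 0.27. The lowest were next to each other: -0.56 at 47.65 to 47.70 Mb (368 against 543), -0.51 at 47.70 to 47.75 Mb (430 against 611) and -0.44 at 47.75 to 47.80 Mb. The 3 bins above wild type also formed a row, from 47.10 to 47.25 Mb, at 0.11, 0.27 and 0.14. These are bins where the running mean of the 350 kb library was below wild type. Because the running mean covers 150 kb, neighbouring 50-kb bins share reads, so nothing is read from either row. Own reads put the named lowest bins at -1.02, -0.18 and -0.45, and the 3 above wild type at 0.49, 0.17 and 0.21. The 3 lowest bins in own reads started at 47.65, 47.60 and 47.80 Mb, and 8 of the 28 bins were above wild type. In the running mean, 2 of 28 bins were below -0.5 and none above 0.5. The background held 9.47% and 3.16%, so the share of 7.14% below is near the background. Among the 97 bins of higher wild-type signal the background was 6.19% below -0.5 and 0% above 0.5.

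**Figure D2:**
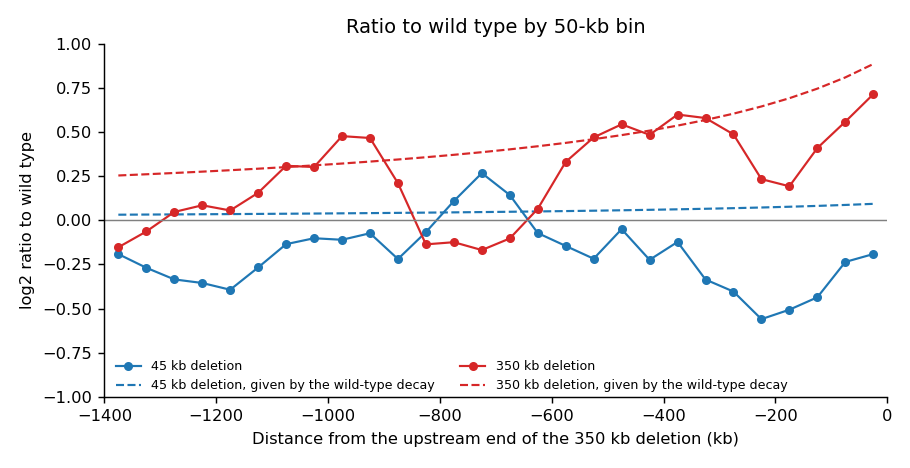
The horizontal axis is the distance in kb from the upstream end of the 350 kb deletion, and the vertical axis is the log2 ratio to wild type in 50-kb bins (points), with dashed lines for the ratio that the fitted wild-type decay gives at the shortened distance. The 350 kb points reach 0.72 at the deletion and lie below their dashed line in 21 of 28 bins, and the 45 kb points lie below theirs in 25.

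The next question was whether these ratios have the size that a shorter distance to the bait would give. Over the 94 wild-type bins from 0.3 to 5 Mb upstream, log2 signal fell with log2 distance with an exponent of -1.02 (SE 0.062 over bins, which are not independent). The wild-type stretch itself departed from this line, by up to 1.49 above it at 46.50 to 46.55 Mb and 1.07 below it in the trough (log2 -1.07). In all, 19 of its 28 bins were below the line and 9 above. The line is therefore used only for the ratio between 2 distances.

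For a distance shortened by 330 kb the line gives log2 ratios from 0.25 at the far end to 0.89 at the near end, with a median of 0.39. The 350 kb library was above the line's ratio in 7 bins and below it in 21, and the median of observed minus given was -0.18. Its size depended on the settings, from -0.065 with the line fitted to 2.5 Mb to -0.29 with the line fitted to 10 Mb. In the bins from 47.35 to 47.60 Mb the running means were close: 0.47, 0.54, 0.48, 0.60 and 0.58 were observed, against 0.46, 0.48, 0.51, 0.54 and 0.57 given. The own reads of these bins were more uneven, at 0.88, 0.47, 0.55, 0.40 and 0.94, so nothing is read from the closeness. Nearest the deletion the observed 0.72 was short of the 0.89 given, and at 47.70 to 47.75 Mb the observed 0.19 was short of 0.69. In own reads these bins were at 0.57 and 0.44, also short of the line. In the 4 bins from 47.05 to 47.25 Mb the line gave 0.36 to 0.40, while the observed ratios were below 0.

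For a distance shortened by 45 kb the line gives 0.032 to 0.094, a gain smaller than most differences seen here. The 45 kb library was below it in 25 bins, and the median of observed minus given was -0.27.

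The wild-type profile itself can also be read at the shortened distance, 330 kb or 45 kb nearer the bait, with no fitted line. For the 350 kb library the outcome differed along the stretch. In the 14 bins nearest the deletion all were below the wild-type signal at the shortened distance, with a median log2 of -0.40, while they were above wild type at the same place by a median of 0.48. Next to the deletion, for example, the signal was 1799, between the 1096 of wild type at the same place and the 2287 at the shortened distance. That 1799 is a running mean that takes in windows beyond the deletion. For the last 330 kb of the stretch, the wild-type reading at the shortened distance comes from the windows deleted in the 350 kb library. In the 14 farther bins 9 were above wild type at the shortened distance, with a median of 0.71 and the highest value, 1.69, at 46.60 to 46.65 Mb. There wild type at the same place was at 762 and the 350 kb library at 787, but wild type at the shortened distance was at 245. The median absolute log2 difference over these farther bins was 0.15 from wild type at the same place and 0.82 from wild type at the shortened distance. Of the 14 near bins, 13 lay between the 2 readings. For the 45 kb library the corresponding median over all 28 bins was -0.19, with 23 bins below. In own reads the medians over all 28 bins were smaller, -0.12 for the 350 kb library against -0.27 in the running mean, and -0.11 for the 45 kb library.

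**Figure D3:**
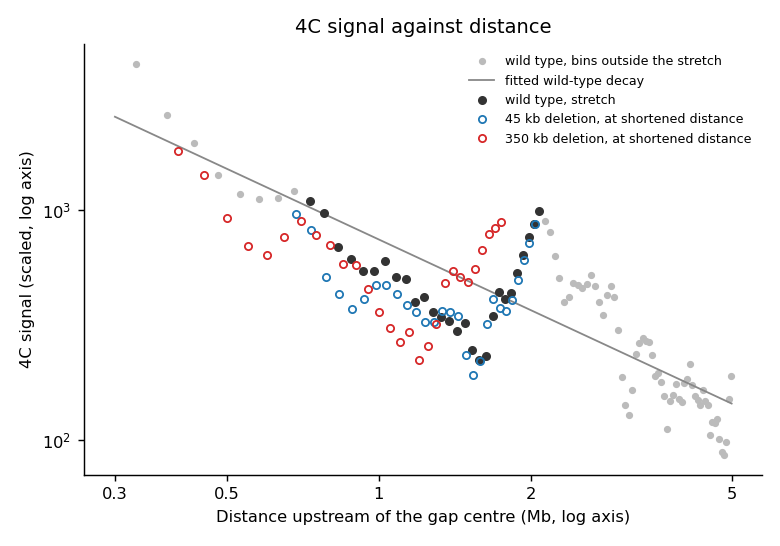
The horizontal axis is the distance upstream of the gap centre in Mb and the vertical axis the scaled 4C signal, both on log axes. Filled points are wild-type bins, open points are the deletion libraries drawn at the distance shortened by their deleted length, and the line is the fitted wild-type decay with exponent -1.02. Drawn this way, the high bins at the far end of the 350 kb library stand left of those of wild type.

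By 200-kb segments the course was the same with fewer numbers. Own reads of wild type, the 45 kb and the 350 kb library were 29189, 26460 and 37066 in the segment next to the deletion (47.7 to 47.9 Mb), with own log2 ratios to wild type of -0.20 and 0.51. They were 20526, 15930 and 24316 at 47.5 to 47.7 Mb, with ratios of -0.42 and 0.41. At 47.3 to 47.5 Mb they were 13201, 12611 and 16847, with ratios of -0.12 and 0.51. The 350 kb library gained by a similar amount in these 3 segments, while the ratio given by the fitted line falls from 0.78 to 0.47 over them. At 47.1 to 47.3 Mb own reads were 10762, 12319 and 9016, and the ratios turned to 0.14 and -0.094. In the remaining segments, outward from there, the 350 kb ratios were 0.29, 0.19 and -0.089 and the 45 kb ratios were -0.12, -0.24 and -0.32.

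The own reads show how far the running mean carries each value. Reads were found in 182 of the 280 windows of wild type, 177 of the 45 kb library and 184 of the 350 kb library, and 171 windows were read in all 3. The 10 windows with the most reads held 20.5%, 21.5% and 21.7% of the reads of the stretch. Of the 171 windows, 111 were higher in the 350 kb library than in wild type and 70 higher in the 45 kb library, with median log2 ratios of 0.31 and -0.15. The middle 50% of windows spanned -0.22 to 0.85 and -0.73 to 0.29, so single windows scattered far more than the bins. Of the 28 bins, 24 kept their direction in own reads in the 350 kb library and 23 in the 45 kb library.

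**Figure D4:**
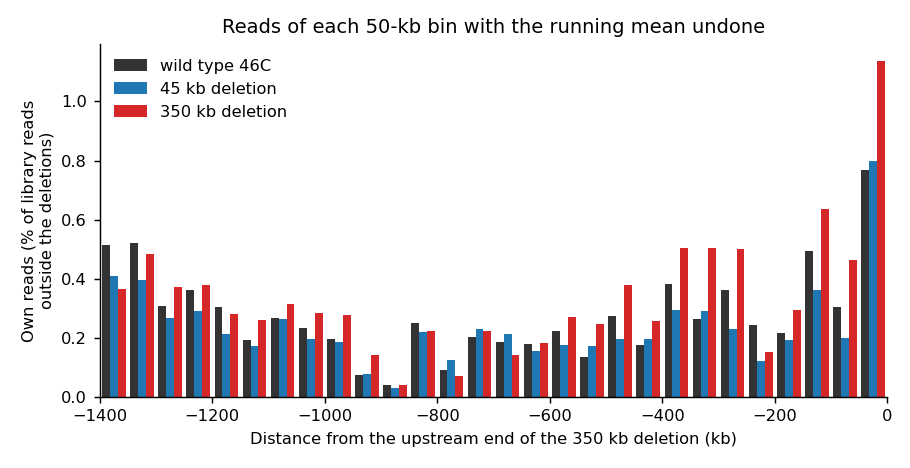
The horizontal axis is the distance in kb from the upstream end of the 350 kb deletion, and each bar is the own reads of a 50-kb bin in percent of the reads of its library outside the deletions. The highest bars are those of the bin next to the deletion, with 12583, 13615 and 16677 own reads in wild type, the 45 kb and the 350 kb library.

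Within the dip of both ratios at 47.65 to 47.75 Mb, 1 window weighed heavily. This window, 47690001 to 47695000, and the next one were named after their values were seen. It held 2997 own reads in wild type, 1020 in the 45 kb library and 98 in the 350 kb library. Its bin, 47.65 to 47.70 Mb, had an own log2 ratio of -0.68 for the 350 kb library and -1.02 for the 45 kb library. Without that window these were 1.26 and -0.0094. This window and the next one named were picked among the 10 most-read wild-type windows, for the largest differences from wild type. Leaving this one out was therefore bound to raise both ratios of its bin. The values without it are not ranked against the other bins, from which no window was left out. The bin of the 45 kb library was level with wild type without it. Over the 30 windows around this window the ratios went from 0.26 to 0.56 and from -0.59 to -0.43. The 45 kb library thus stayed below its value over the stretch there without the window. In own reads its adjoining bins at 47.60 and 47.70 Mb were uneven, at -0.65 and -0.18. The bin after these, at 47.75 Mb, was at -0.45. Over the whole stretch the ratios went from 0.27 to 0.31 and from -0.22 to -0.19. At the far end, the window from 46515001 to 46520000 held 2044, 2165 and 407 reads. Without it the own ratio of the first bin, 46.50 to 46.55 Mb, went from -0.50 to -0.21 for the 350 kb library. The cause of these differences was not tested.

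Next to the deletion the running mean of the 350 kb library takes in windows beyond it, on the side of the bait, for the last 70 kb. The own reads do not. In own reads the last 2 bins were at 0.61 and 0.57, against 0.56 and 0.72 in the running mean, so the higher signal at the edge was present without that reach. In the 45 kb library they were at -0.60 and 0.059.

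The stretch was set beside other parts of the chromosome, with 1 library each and so no test. For the 350 kb library the log2 ratio was 0.30 in the stretch, -0.15 in the next 1400 kb upstream and -0.33 at the same distances downstream of the gap. The signal there was 355 against 394 in wild type, and 240 against 302. Higher signal was not limited to the stretch: farther upstream the running mean of the 350 kb library was above wild type in 28 neighbouring bins from 43.70 to 45.10 Mb, up to 0.95, and in 6 from 45.35 to 45.65 Mb, up to 0.64. Of its 23 bins above 0.5 within 5 Mb, 18 lay outside the stretch. Wild-type signal was low there, at 111 in the bin with 0.95. The 45 kb library was also above wild type in much of that span. Its runs were 43.75 to 44.00 Mb, 44.05 to 44.35 Mb and 44.45 to 44.80 Mb, up to 0.39, 0.24 and 0.75. In the stretch, the next 1400 kb upstream and the same distances downstream, the 45 kb ratios were -0.22, -0.20 and -0.21. Its lower signal was thus of like size at these distances on both sides. Between the deletions and the gap, where contacts are densest, the ratios were 0.035 for the 45 kb library and -0.038 for the 350 kb library. Beyond 5 Mb both libraries held more signal than wild type, at 0.071 and 0.11 upstream and 0.17 and 0.055 downstream.

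**Figure D5:**
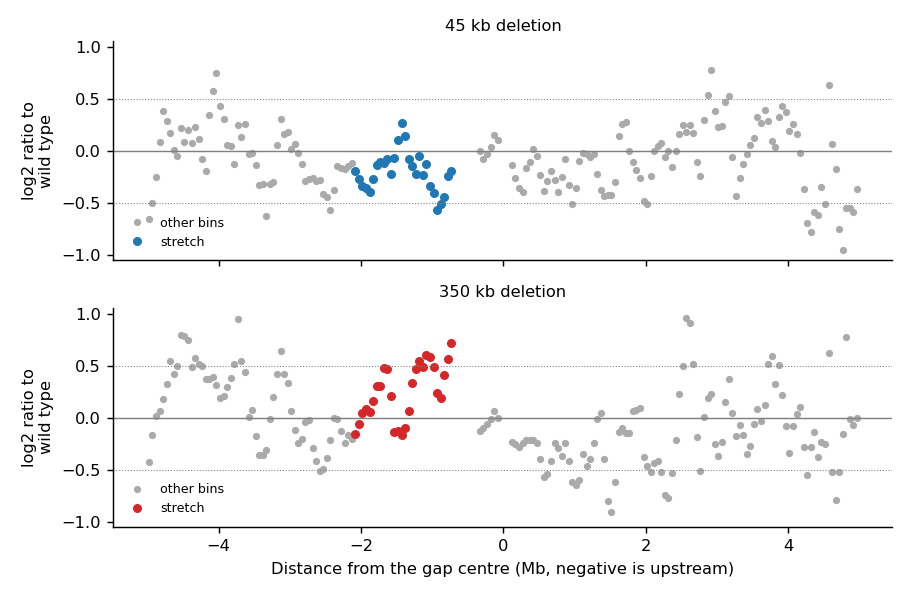
The horizontal axis is the distance from the gap centre in Mb and the vertical axis the log2 ratio to wild type of each 50-kb bin outside the deletions, with the 45 kb library above and the 350 kb library below. Coloured points are the 28 bins of the stretch, grey points the other bins, and dotted lines mark 0.5 and -0.5. The 350 kb points of the stretch, which are running means, are highest next to the deletion but go up and down on the way there. The 45 kb points lie among the grey points on both sides.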

How the data were processed

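4C-seq libraries of 3 inbred mouse embryonic stem cell lines were used, 1 per group, grouped by the description in the labels. The deposited values are a signal, made by the authors as a running mean over 30 windows of 5 kb, per the file headers and the values. Alignment with Bowtie2 and the builds mm9 and mm10 are named in the submitters' processing notes; the last window with reads ended at 98315000, and the table was read as chromosome 16 of mm9. The column totals were nearly equal, so the authors had scaled the libraries. The hybrid clones of the series use another bait and build and were not used.

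The running mean was undone with the deleted windows left out, which gave whole reads within 0.01; keeping those windows gave 4343 and 4730 windows below 0 for the 45 kb and 350 kb deletions. Ratios used signal scaled to the wild-type total outside both deletions, in bins of 50 kb. The decay was a least-squares line. The undoing, the ratios and the line were tested on simulated data. The simulated running means were built with the same alignment and left-out windows that the undoing assumes. They therefore cannot check the position of own reads, which could be off by a window. No test between libraries was made. Named bins were the 3 highest and the 3 lowest ratios of each deletion, the 3 highest and lowest wild-type signals, and the first and last bin. The members, bins and settings were chosen with earlier results of these data known. Other scalings, bin sizes, limits, bait positions and fit ranges were tried. The tools were Python 3.11.15, pandas 2.3.3 and numpy 2.4.6, with matplotlib 3.10.9 for figures and scipy 1.17.1 for intervals.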

Additional observations from a re-analysis of the deposited data

Results flagged for a closer look

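The deletions went opposite ways against wild type in the stretch, at a log2 of 0.30 for the 350 kb and -0.22 for the 45 kb deletion, a difference of 0.52. No test of it was possible with 1 library per deletion, and both share the wild-type library. By bins, 22 of 28 were above wild type in the 350 kb library and below it in the 45 kb library, 3 went the other way and 3 were below in both.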

How the results depend on the processing

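No paired analysis was possible because each group has 1 library. The log2 values of the whole stretch and the medians over bins kept their sign under the settings tried for each, while sizes moved. Single bins did not all do so: 4 bins of the 350 kb library and 5 of the 45 kb library turned sign in own reads. No setting varied depth. Values follow in the order 350 kb, then 45 kb deletion, unless named. Settings with windows read in all 3 libraries, or without the 10 most-read windows, were chosen after seeing the data.
The log2 ratio of the stretch (0.30 and -0.22) was 0.37 and -0.21 as deposited, 0.21 and -0.34 scaled to windows over 5 Mb away, and 0.27 and -0.20 as the median over bins. For the 350 kb deletion alone it was 0.40 scaled to downstream windows, 0.22 without the 30 windows nearest the deletion, 0.27 in own reads, 0.28 over windows read in all 3 libraries and 0.23 without the 10 most-read windows. The 350 kb to 45 kb ratio (0.52) was, in the order of these 8 settings, 0.58, 0.56, 0.46, 0.62, 0.44, 0.49, 0.51 and 0.47.
The exponent (-1.02) was -0.86 with the bait at the highest bin (48.375 Mb), -0.78 and -1.30 fitted to 2.5 and 10 Mb, -1.305 downstream and -1.17 without the stretch. Observed minus given by the line (-0.18 for 350 kb) was -0.22, -0.065, -0.29, -0.29 and -0.25 under these 5, and -0.22 with the labelled 350 kb; for 45 kb (-0.27) it was -0.28 fitted to 10 Mb and -0.28 downstream. It was -0.11 and -0.25 as deposited, -0.26 and -0.39 scaled over 5 Mb away, -0.14 and -0.22 without the nearest 30 windows, -0.20 and -0.25 in own reads, -0.21 and -0.26 over windows read in all 3, -0.12 and -0.25 without the 10, and -0.084 for 350 kb scaled downstream.
Against wild type at the shortened distance (-0.27 and -0.19) it was -0.20 and -0.18 as deposited, -0.36 and -0.31 scaled over 5 Mb away, -0.25 and -0.15 without the nearest 30 windows, -0.12 and -0.11 in own reads, and -0.18 for 350 kb scaled downstream.
Bins past 0.5 in either direction (5 and 2 of 28) were 10 and 1 as deposited, 2 and 5 scaled over 5 Mb away, 8 and 4 in own reads, 9 and 5 without the 10 most-read windows, 3 of 14 and 0 of 14 in bins of 100 kb, and 14 and 8 past 0.3. For 350 kb they were 11 scaled downstream and 3 of 25 without the nearest 30 windows, and for 45 kb 5 over windows read in all 3.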
